A study of Homo sapiens with 8 samples.

Results

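Transcripts of 8 genes typical of mesenchymal cells were followed in cultures of oligodendrocyte progenitor cells (OPCs). The genes were LUM, DCN, COL6A1, COL6A2, COL6A3, PRRX1, TWIST1 and FOXC1. They were taken as a list of 8 names among 58217 genes with a matched transcript, and all 8 were among the 18201 genes with enough counts to be tested. The list was chosen with earlier results of these data known. Its calls and medians, set beside those of all genes below, are thus a description and not an independent test. The OPCs were derived from the established human line H9 (embryonic stem cells) and carried no forced SOX10. They were plated for 2 days on 1 of 3 substrates. Matrigel, a basement membrane extract, was the control (2 libraries, replicates 2 and 3). VN was full-length vitronectin (3 libraries). VNP2 was a vitronectin-derived peptide with the RGD motif, fused to a mussel adhesive protein (3 libraries). A single line was used, and nothing says that replicates were separate differentiations, so p-values measure the spread between these libraries, which may be technical. In bulk RNA, fewer cells of a type and less RNA per cell cannot be told apart.

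Lumican (LUM) and decorin (DCN) are small leucine-rich proteoglycans, secreted proteins that bind collagen fibrils and set their spacing. COL6A1, COL6A2 and COL6A3 encode the alpha chains of collagen VI, which assemble as a heterotrimer and form beaded microfilaments around connective tissue cells. PRRX1 (a homeobox factor), TWIST1 (a basic helix-loop-helix factor) and FOXC1 (a forkhead factor) act in embryonic mesenchyme, and FOXC1 is needed for the meninges. None of them is a classical gene of the oligodendrocyte lineage.

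The libraries held 37997896 to 39429453 estimated counts. Normalized counts are these counts per gene, scaled for library size and transcript length. Calls were made where edgeR's quasi-likelihood test gave an adjusted p under 0.05 (Benjamini-Hochberg over all 18201 genes). By this rule 15.3% of genes were called between VN and Matrigel (5.66% higher and 9.6% lower on VN), 16.6% between VNP2 and Matrigel (7.44% higher and 9.13% lower on VNP2) and 5.1% between VNP2 and VN (3.09% higher and 2.01% lower on VNP2). Of the calls against Matrigel, 37.1% were higher on VN and 44.9% higher on VNP2. On the TPM scale these shares were 67.3% and 65.1%. VN replicate 1 stood apart, with a median chi-square per gene of 2.25 and 2.62 against the other VN libraries, which differed from each other by 0.782 (sampling noise alone gives 0.455). Both comparisons with Matrigel share the same 2 control libraries.

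The labelled identity of the cultures was checked on 7 OPC genes. OLIG1, OLIG2, NKX2-2 and PTPRZ1 were expressed, and PDGFRA and CSPG4 were detected at low levels. SOX10, a defining OPC gene, was close to absent, with 20 estimated counts over all 8 libraries. The summed level of the 7 OPC genes was 215 to 217 TPM (Salmon's level per transcript length, scaled to a fixed total per library) on Matrigel, 282 to 296 on VN and 310 to 334 on VNP2. In the same order, PTPRZ1 made up 108.1, 150.5 and 178.1 TPM of this, PDGFRA 3.76, 4.53 and 4.94, and CSPG4 0.642, 0.804 and 1.065. The 8 mesenchymal cell genes summed to 283 to 293, 365 to 418 and 338 to 374 TPM. Neither sum overlapped between Matrigel and the other substrates. The rise of the sum of the 8 genes lay mainly in LUM (101, 160 and 131 TPM) and DCN (81.3, 124 and 108), while COL6A1 stayed nearly level and PRRX1 fell. On the TPM scale the median log2 fold change of all tested genes against Matrigel was itself above 0, at 0.0827 on VN and 0.0669 on VNP2.

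Against Matrigel, LUM, DCN and COL6A3 rose on both VN and VNP2, and TWIST1 and FOXC1 rose on VNP2. PRRX1 fell on both. COL6A1 and COL6A2 did not pass the test in any comparison. In counts, 3 of the 8 were called higher and 1 lower on VN (background 5.66% and 9.6%), and 5 were called higher and 1 lower on VNP2 (background 7.44% and 9.13%). The median log2 fold change of the 8 was 0.26 on VN and 0.33 on VNP2, against 0.0044 and 0.0024 over all tested genes. Without VN replicate 1, 4 were higher and 1 lower on VN. Without Matrigel replicate 2 or 3, 0 were lower on VN, and 3 and 2 were higher on VNP2. Across the 3 substrates together, 6 of the 8 differed, where 19.3% of all genes did. The libraries of VN and Matrigel did not overlap for 6 of the 8 (44.4% of all genes), and those of VNP2 and Matrigel for 7 (48.1%).

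**Figure D1:**
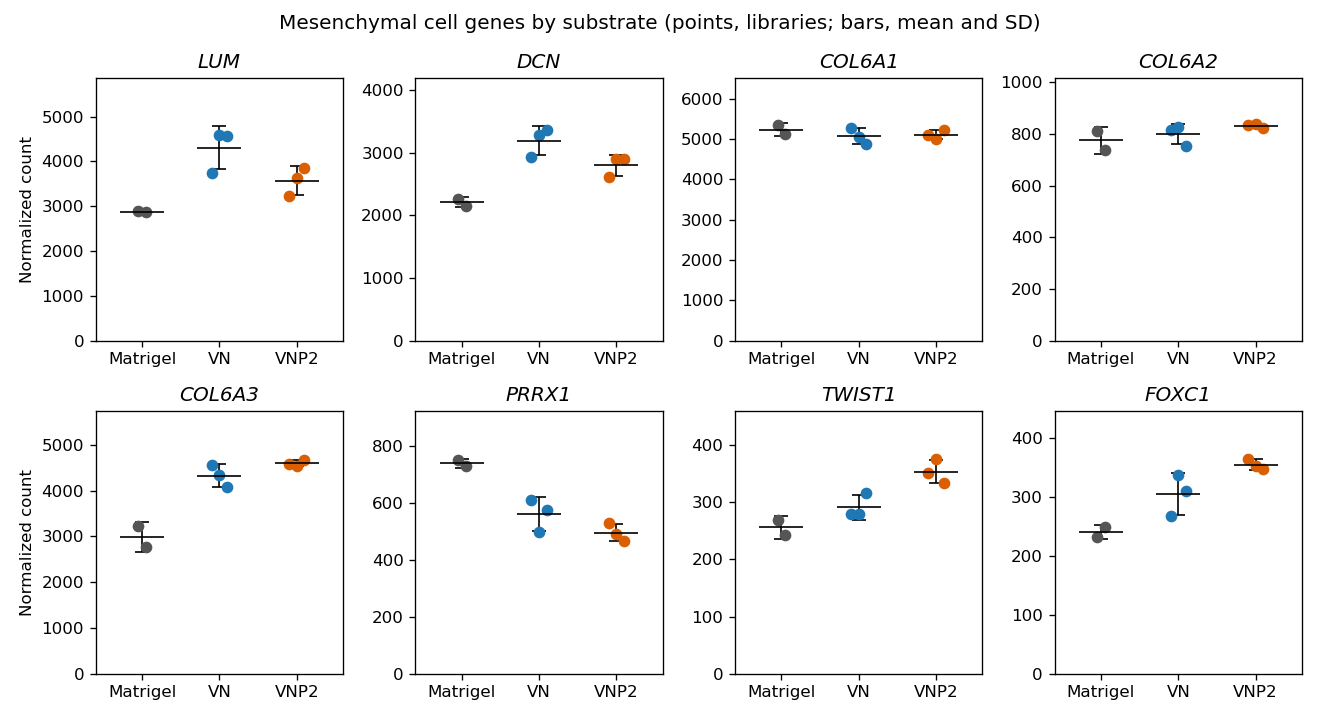
Normalized counts (vertical axes, from 0) of the 8 genes in each library on Matrigel, VN and VNP2, with the mean and SD of each substrate. LUM, DCN and COL6A3 lie higher on VN and VNP2 than on Matrigel, PRRX1 lies lower, and COL6A1 stays between 4882 and 5351 in all libraries.

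LUM (ENSG00000139329) lies on the minus strand of chromosome 12 (GRCh38, 91102629 to 91111831). Its normalized counts on Matrigel were 2897 and 2862, those on VN 3745, 4597 and 4556, and those on VNP2 3219, 3629 and 3855. Every VN and VNP2 library was above both Matrigel libraries, and VN replicate 1 was the lowest on VN. LUM rose on VN by a log2 fold change of 0.58 (SE 0.0939, edgeR adjusted p = 0.00254), or 1.49-fold. On VNP2 the rise was 0.31 (SE 0.0937, edgeR adjusted p = 0.0478), close to the threshold. That call was lost in 5 of the 8 fits that left out 1 library (Matrigel replicate 2 or 3, VN replicate 3, or VNP2 replicate 2 or 3), with edgeR adjusted p of 0.0548 to 0.201.

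DCN (ENSG00000011465) is the neighbour of LUM on the same strand (91140484 to 91183123), 28652 bp away with 0 annotated genes between. Its normalized counts on Matrigel were 2264 and 2155, those on VN 2928, 3287 and 3361, and those on VNP2 2607, 2898 and 2899. The 3 groups did not overlap, with VN highest and Matrigel lowest. DCN rose by 0.53 on VN (SE 0.0696, edgeR adjusted p = 0.000625) and by 0.34 on VNP2 (SE 0.0696, edgeR adjusted p = 0.00700). Without Matrigel replicate 3, the call on VNP2 was lost (edgeR adjusted p = 0.0789).

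LUM and DCN moved closely together over the 8 libraries. After centring each gene's log2 normalized counts on their mean, the root mean square difference between the 2 was 0.057. Of 12981 other tested genes with a mean count of at least 100, 0.0077% were nearer to LUM than DCN was. Per length, LUM was at 101 ± 0.367 TPM (SD, n = 2) on Matrigel, 160 ± 20.3 (n = 3) on VN and 131 ± 12.3 (n = 3) on VNP2, and DCN at 81.3 ± 2.44, 124 ± 10.9 and 108 ± 6.78. The ratio of LUM to DCN was 1.24 ± 0.0332, 1.28 ± 0.0583 and 1.21 ± 0.0484, and these ranges overlapped.

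Of 10 other genes of small leucine-rich proteoglycans, 5 were tested. On VN, 0 were called (edgeR and DESeq2; 2 had an unadjusted p under 0.05), and only biglycan (BGN), which also binds collagen, was called on VNP2. BGN was at 32.8 ± 1.07, 33.5 ± 0.560 and 42.5 ± 1.60 TPM on Matrigel, VN and VNP2. It rose by 0.31 against Matrigel (edgeR adjusted p = 0.00236) and by 0.36 against VN (edgeR adjusted p = 0.00128). ASPN, OMD, EPYC, KERA and ECM2 each had at most 13 estimated counts over all libraries.

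COL6A1 (ENSG00000142156) and COL6A2 (ENSG00000142173) lie on the plus strand of chromosome 21 (45981737 to 46005050 and 46098097 to 46132849), 93046 bp apart with 0 protein-coding genes between. COL6A3 (ENSG00000163359) lies on the minus strand of chromosome 2 (237324003 to 237414375). COL6A1 had 5351 and 5128 normalized counts in the Matrigel libraries, 5280, 5050 and 4882 in those of VN, and 5099, 5003 and 5219 in those of VNP2, and the groups overlapped. The 95% interval of its log2 fold change was -0.14 to 0.049 on VN and -0.13 to 0.059 on VNP2. The sign of both estimates turned on the TPM scale.

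COL6A2 had 812 and 738 normalized counts in the Matrigel libraries, 815, 826 and 754 in those of VN, and 834, 840 and 825 in those of VNP2. All VNP2 libraries were above both Matrigel libraries, by a narrow margin. Its log2 fold change was 0.10 on VNP2, with a 95% interval of -0.046 to 0.25 (edgeR adjusted p = 0.356), and 0.043 on VN, with an interval of -0.11 to 0.19.

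COL6A3, the largest chain, had 3219 and 2761 normalized counts in the Matrigel libraries, 4563, 4350 and 4077 in those of VN, and 4591, 4539 and 4678 in those of VNP2. Matrigel was separate from both other substrates. COL6A3 rose by 0.53 on VN (SE 0.0662, edgeR adjusted p = 0.000426) and by 0.62 on VNP2 (SE 0.0662, edgeR adjusted p = 0.000104). Both calls held in each of the 17 alternative fits.

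**Figure D2:**
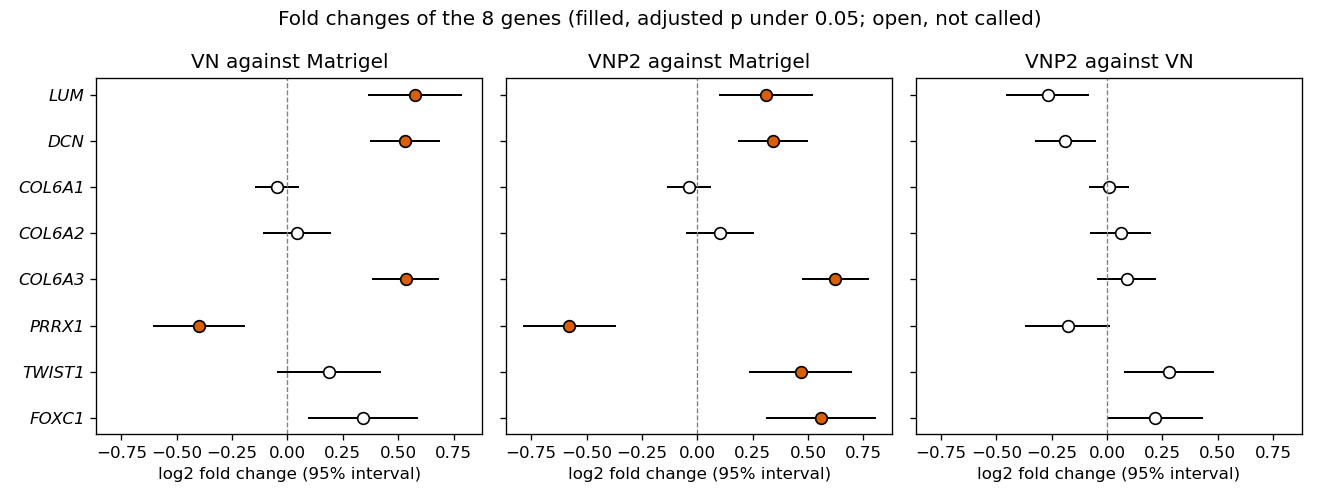
Log2 fold changes (horizontal axes) of the 8 genes with 95% intervals in the 3 comparisons of substrates. Filled points passed the test, and COL6A3 had the highest value on VNP2 (0.62), while no point is filled between VNP2 and VN.

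The RNAs of the 3 chains of collagen VI thus changed unequally. Per length, COL6A1 was the most abundant at 54.2 ± 1.37, 55.6 ± 1.39 and 55.4 ± 1.31 TPM on Matrigel, VN and VNP2. COL6A3 was at 12.2 ± 1.26, 18.7 ± 0.809 and 19.7 ± 0.351 TPM, and COL6A2 at 9.32 ± 0.582, 10.2 ± 0.458 and 10.5 ± 0.0767 TPM. These totals hold all transcripts of a gene, among them the processed transcript COL6A1-206 with 15.85 to 25.33% of the TPM of COL6A1. The ratio of COL6A1 to COL6A3 was 4.21 and 4.71 in the Matrigel libraries, 2.93, 2.94 and 3.04 in those of VN, and 2.82, 2.79 and 2.83 in those of VNP2. No library overlapped between the 3 substrates for this ratio. The ratio of COL6A3 to COL6A2 was 1.31 ± 0.0537 on Matrigel, 1.84 ± 0.0572 on VN and 1.88 ± 0.0459 on VNP2.

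These ratios were tested over all 560 ways to divide 8 libraries into groups of 2, 3 and 3. The test was chosen after the values were seen, so its p-values describe these libraries and are not independent evidence. COL6A1 to COL6A3 gave an exact permutation p of 0.00357 (the smallest possible; 0.0143 after adjustment for 4 ratios). COL6A3 to COL6A2 gave an exact permutation p of 0.0179 (adjusted 0.0357). COL6A1 to COL6A2 (exact permutation p = 0.0571, adjusted 0.0762) and LUM to DCN (exact permutation p = 0.314, adjusted 0.314) did not pass. Between pairs of substrates no ratio could pass, since the smallest possible exact permutation p was 0.1. COL6A1 to COL6A3, COL6A3 to COL6A2 and COL6A1 to COL6A2 each reached that value on VN and on VNP2 against Matrigel (adjusted 0.171). COL6A1 to COL6A3 also reached it between VNP2 and VN.

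**Figure D3:**
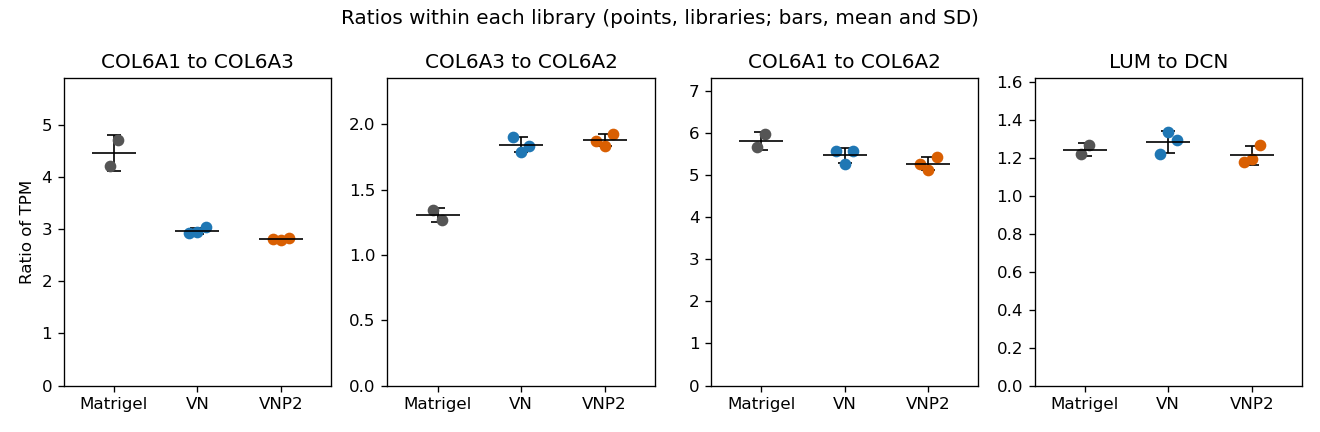
Ratios of TPM (vertical axes, from 0) within each library for pairs of collagen VI chains and for LUM to DCN, with the mean and SD of each substrate. COL6A1 to COL6A3 falls from 4.46 on Matrigel to 2.97 on VN and 2.81 on VNP2, while LUM to DCN stays between 1.18 and 1.34 in all libraries.

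The other collagen VI chains, COL6A5 and COL6A6, and the pseudogene COL6A4P1 had 10, 13 and 16 estimated counts in all. Of 10 binding partners and modifiers of collagen VI, 8 were tested, of which 2 were higher and 4 lower on VN (5.66% and 9.6% of all genes), and 1 was higher and 3 lower on VNP2 (7.44% and 9.13%). Without Matrigel replicate 2 these became 1 and 2 on VN and 0 and 3 on VNP2, and without Matrigel replicate 3 they became 1 and 3 on VN. Fibronectin (FN1), which collagen VI binds in the matrix, was at 172 ± 2.83 TPM on Matrigel, 237 ± 6.10 on VN and 142 ± 0.714 on VNP2. It rose by 0.38 on VN (edgeR adjusted p = 9.06e-05) and fell by 0.35 on VNP2 (edgeR adjusted p = 0.000103). Matrilin 2 (MATN2), which links collagen VI to other fibres, fell by 1.42 on VN and 1.64 on VNP2 on the log2 scale. The collagen VI receptors ANTXR1 and ANTXR2 moved little: ANTXR1 rose by 0.13 on VN, and ANTXR2 fell by 0.25 there (edgeR adjusted p = 0.0452 and 0.00874).

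The 3 transcription factors did not share a direction. PRRX1 (ENSG00000116132; chromosome 1, plus strand, 170662728 to 170739419) had 749 and 728 normalized counts in the Matrigel libraries, 611, 496 and 575 in those of VN, and 528, 490 and 467 in those of VNP2. Both Matrigel libraries were above all others. PRRX1 fell by 0.40 on VN (SE 0.0923, edgeR adjusted p = 0.0160) and by 0.58 on VNP2 (SE 0.0926, edgeR adjusted p = 0.00175). The call on VN was lost when either Matrigel library was left out (edgeR adjusted p = 0.110 and 0.0772), whereas that on VNP2 held in all 17 alternatives.

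TWIST1 (ENSG00000122691; chromosome 7, minus strand, 19020991 to 19117672) had 270 and 242 normalized counts in the Matrigel libraries, 279, 279 and 317 in those of VN, and 352, 376 and 334 in those of VNP2. Every VNP2 library was above every other library. TWIST1 rose by 0.47 on VNP2 (SE 0.103, edgeR adjusted p = 0.0108), but without Matrigel replicate 3 the adjusted p in edgeR was 0.112. On VN its log2 fold change was 0.19, with a 95% interval of -0.043 to 0.42 (edgeR adjusted p = 0.260).

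FOXC1 (ENSG00000054598; chromosome 6, plus strand, 1609972 to 1613897) had 232 and 249 normalized counts in the Matrigel libraries, 267, 337 and 310 in those of VN, and 364, 353 and 347 in those of VNP2. The 3 groups did not overlap. FOXC1 rose by 0.56 on VNP2 (SE 0.109, edgeR adjusted p = 0.00566), and without Matrigel replicate 2 the adjusted p in edgeR was 0.0594. On VN the value was 0.34 (SE 0.110, edgeR adjusted p = 0.0632). Without VN replicate 1, which was the lowest on VN, it was 0.43 and passed (edgeR adjusted p = 0.0127).

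Per length, PRRX1 was at 12.3 ± 0.188, 9.91 ± 0.935 and 8.66 ± 0.509 TPM on Matrigel, VN and VNP2, TWIST1 at 13.01 ± 0.936, 15.7 ± 1.34 and 18.9 ± 1.08, and FOXC1 at 4.13 ± 0.220, 5.54 ± 0.715 and 6.37 ± 0.136. PRRX1 and TWIST1 overlap noncoding genes of at most 0.0729 TPM.

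Promoter sequence from RefSeq (GRCh38.p14; 250 bases before to 50 after the start) was at hand for 4 of the 8 genes. A pair of stretches before the RefSeq start and outside the GENCODE v29 exons of the same gene are shown. They belong to a collagen VI chain that passed no test and a factor that rose on VNP2. Capitals mark the TATA box letters TATAAA, the GC box letters GGGCGG and the letters CCAAT, each searched on both strands.
COL6A2, chr21:46097862-46098096, plus strand: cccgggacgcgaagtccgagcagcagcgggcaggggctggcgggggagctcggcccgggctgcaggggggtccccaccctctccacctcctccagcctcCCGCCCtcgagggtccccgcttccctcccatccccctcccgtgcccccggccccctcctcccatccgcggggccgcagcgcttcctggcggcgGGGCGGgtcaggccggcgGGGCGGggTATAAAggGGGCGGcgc
FOXC1, chr6:1609665-1609914, plus strand: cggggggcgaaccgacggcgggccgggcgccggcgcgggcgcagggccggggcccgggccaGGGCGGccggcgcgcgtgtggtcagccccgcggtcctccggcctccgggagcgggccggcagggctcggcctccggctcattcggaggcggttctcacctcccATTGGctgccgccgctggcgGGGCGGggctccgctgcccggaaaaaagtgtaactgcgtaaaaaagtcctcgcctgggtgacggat
The COL6A2 stretch held 1 TATAAA and 4 GGGCGG, and the FOXC1 stretch 2 GGGCGG and 1 CCAAT. Of 35116 RefSeq windows of 300 bases, 11.5% held TATAAA, 45.0% GGGCGG and 34.6% CCAAT. The E-box letters CANNTG, found in 68.7%, were in none of the 4 windows at hand (COL6A2, COL6A3, PRRX1 and FOXC1).

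Between VNP2 and VN, 0 of the 8 genes passed (edgeR; background 5.1%). At an unadjusted p under 0.05 there were 4 (19.8% of all genes), namely LUM, DCN, TWIST1 and FOXC1, and DESeq2 called 1, LUM. LUM had a log2 fold change of -0.27, with a 95% interval of -0.45 to -0.087 (edgeR adjusted p = 0.0988). DCN had a log2 fold change of -0.19, with an interval of -0.32 to -0.053 (edgeR adjusted p = 0.116). For TWIST1 the value was 0.28 (edgeR adjusted p = 0.115), and for FOXC1 0.22 (edgeR adjusted p = 0.236). The libraries did not overlap for DCN, TWIST1 and FOXC1, as for 23.6% of all genes. Without VN replicate 1, LUM (-0.36; edgeR adjusted p = 0.00938) and DCN (-0.25; edgeR adjusted p = 0.0192) were lower on VNP2. With the replicate number as a block the same 2 were called (edgeR adjusted p = 0.00550 and 0.0225).

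The genes split in the order of their substrate means. LUM and DCN were highest on VN and lowest on Matrigel. COL6A3, TWIST1 and FOXC1 were highest on VNP2 and lowest on Matrigel, and PRRX1 was highest on Matrigel and lowest on VNP2. Neighbours in these orders that did not pass the test were VN and VNP2 for every gene, and Matrigel and VN for TWIST1 and FOXC1. COL6A1 and COL6A2 had no pair that passed. The test over the 3 substrates gave edgeR adjusted p of 0.00452 for LUM, 0.00127 for DCN, 0.000234 for COL6A3, 0.00411 for PRRX1, 0.0199 for TWIST1 and 0.0138 for FOXC1, but 0.691 for COL6A1 and 0.493 for COL6A2.

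Each gene's 3 nearest patterns were sought among the 12981 genes that are not of the 8 and had a mean of at least 100 normalized counts. By the root mean square difference of centred log2 counts over the 8 libraries, they were LHX1 for LUM (0.0425), AC011447.7 and SOX9 for DCN (0.0596 and 0.0606, farther than LUM at 0.057) and PAK5, ZIC1 and ISL1 for COL6A3 (0.0349, 0.0450 and 0.0662). For PRRX1 they were SPSB1, CLU and FAT1 (0.0490 to 0.0617), for TWIST1 SLC12A8, ADAMTSL1 and KCNK2 (0.0581 to 0.0630), and for FOXC1 NEGR1, ST8SIA3 and RFX3 (0.0741 to 0.0755). The remaining ones were AL732372.3 and GTF2IP20 for LUM, PAG1 for DCN, CALM3, EIF3H and SDK2 for COL6A1, and FAM208A, PCNA and ELP3 for COL6A2.

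The split of each gene's TPM between its transcripts was estimated by Salmon. LUM-201, its coding transcript, held 54.8% of the gene's TPM on average (42.0 to 63.9%), and the processed transcripts LUM-202 and LUM-203 held 27.7% and 17.5%. DCN-202 held 48.4% and DCN-210 31.1%, and DCN-216 held 13.1% but was at 0 in VN replicate 1. COL6A3 was divided between COL6A3-209 (52.2%) and COL6A3-203 (39.6%), both coding. COL6A1-201 held 78.2% and the processed transcript COL6A1-206 21.0%, and COL6A2-201 held 80.8% and COL6A2-203 10.4%. PRRX1-201 held 49.3%, PRRX1-207 23.6% and PRRX1-202 11.1%, while the processed transcripts PRRX1-205 and PRRX1-204 varied from 0 to 18.7% and from 0 to 17.4% between libraries. TWIST1-201 held 75.6% and TWIST1-202, annotated for nonsense-mediated decay, 22.8%, and FOXC1 had 1 matched transcript. Such shares are estimates from reads that transcripts have in common, and were not tested.

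Other lists of mesenchymal genes were counted in the same fit. Of 22 tested mesenchymal transcription factors, 2 were higher and 1 lower on VN, and 9 were higher and 0 lower on VNP2 against Matrigel (against 7.44% and 9.13% of all genes), with a median of 0.43. The 9 became 4 and 5 when Matrigel replicate 2 or 3 was left out, and DESeq2 called 6. The 1 lower on VN was lost without either Matrigel library and in DESeq2. Between VNP2 and VN, 3 were higher (3.09% of all genes). ZEB1, a repressor of epithelial genes, rose by 0.18 on VNP2 (edgeR adjusted p = 0.0260), from 47.2 to 56.2 TPM. HIC1 rose by 1.26 (edgeR adjusted p = 0.000107), from 2.51 to 6.32 TPM, and EBF2 by 1.10 (edgeR adjusted p = 0.000169), from 0.988 to 2.22 TPM. MEOX1, a homeobox gene of the somites, rose by 0.77 on VN and 0.82 on VNP2 (edgeR adjusted p = 0.00432 and 0.00243).

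Among fibroblast and mesenchymal matrix genes, more were called lower than higher. Of 23 tested, 2 were higher and 9 lower on VN (5.66% and 9.6% of all genes), and 2 were higher and 7 lower on VNP2, with medians of -0.24 and -0.11. The genes called higher were COL1A2 on both (by 0.33 and 0.29, edgeR adjusted p = 0.000226 and 0.000345), FAP on VN (by 1.12, edgeR adjusted p = 0.00395) and COL3A1 on VNP2 (by 0.28, edgeR adjusted p = 0.000545). Called lower on both were COL1A1, COL5A1, COL5A2, SPARC, LOXL1, LOXL2 and CCN2, and on VN also FBLN1 and SERPINH1. COL1A1 was at 159.5, 116.3 and 63.07 TPM on Matrigel, VN and VNP2. Against Matrigel it fell by 0.54 on VN and 1.41 on VNP2 (edgeR adjusted p = 0.000392 and 3.00e-07). The list's sum was 4029 to 4085 TPM on Matrigel, 2976 to 3056 on VN and 2959 to 3117 on VNP2. Its fall lay mainly in SPARC and CCN2, the latter at 858, 363 and 462 TPM, so it does not describe the list as a whole. SPARC, which binds collagen, was at 1891 ± 50.8, 1482 ± 24.8 and 1406 ± 43.4 TPM, and fell by 0.43 on VN and 0.49 on VNP2 (edgeR adjusted p = 3.46e-05 and 8.99e-06). CCN2, a matricellular gene induced by YAP, fell by 1.32 and 0.96 on the log2 scale (edgeR adjusted p = 4.44e-08 and 1.88e-07), and COL5A2, a fibrillar collagen chain, by 0.60 and 0.41 (edgeR adjusted p = 6.01e-07 and 5.89e-06). FBLN1 fell by 0.17 on VN (edgeR adjusted p = 0.0222), and on VNP2 its value was -0.11 (edgeR adjusted p = 0.117).

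Of 8 tested pericyte and smooth muscle genes, 6 were lower and 0 higher on both VN and VNP2 (RGS5, NOTCH3, MCAM, ACTA2, TAGLN and CNN1), with medians of -0.80 and -0.75. Over all genes, 9.6% and 9.13% were lower. Without Matrigel replicate 3, 5 were lower on each, and without VN replicate 1, 7 were lower on VN. The pericyte genes KCNJ8 (edgeR adjusted p = 0.0626 and 0.336) and ABCC9 (edgeR adjusted p = 0.542 and 0.476) were not called. The list's sum was 722 to 761 TPM on Matrigel, 263 to 285 on VN and 237 to 265 on VNP2, with TAGLN as its largest part. TAGLN, an actin-binding protein of smooth muscle, went from 498 ± 18.3 TPM to 121 ± 4.19 and 106 ± 15.7, and RGS5, a pericyte gene, from 73.6 ± 3.83 to 26.6 ± 2.46 and 15.2 ± 1.34. NOTCH3 fell by 0.28 and 0.25 and MCAM by 0.62 and 0.66 on the log2 scale. MYH11 and DES, defining markers of mature muscle, had 18 and 28 counts in all. Whether pericytes or smooth muscle cells were present, and their part in the values of the 8 genes, was not tested.

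**Figure D4:**
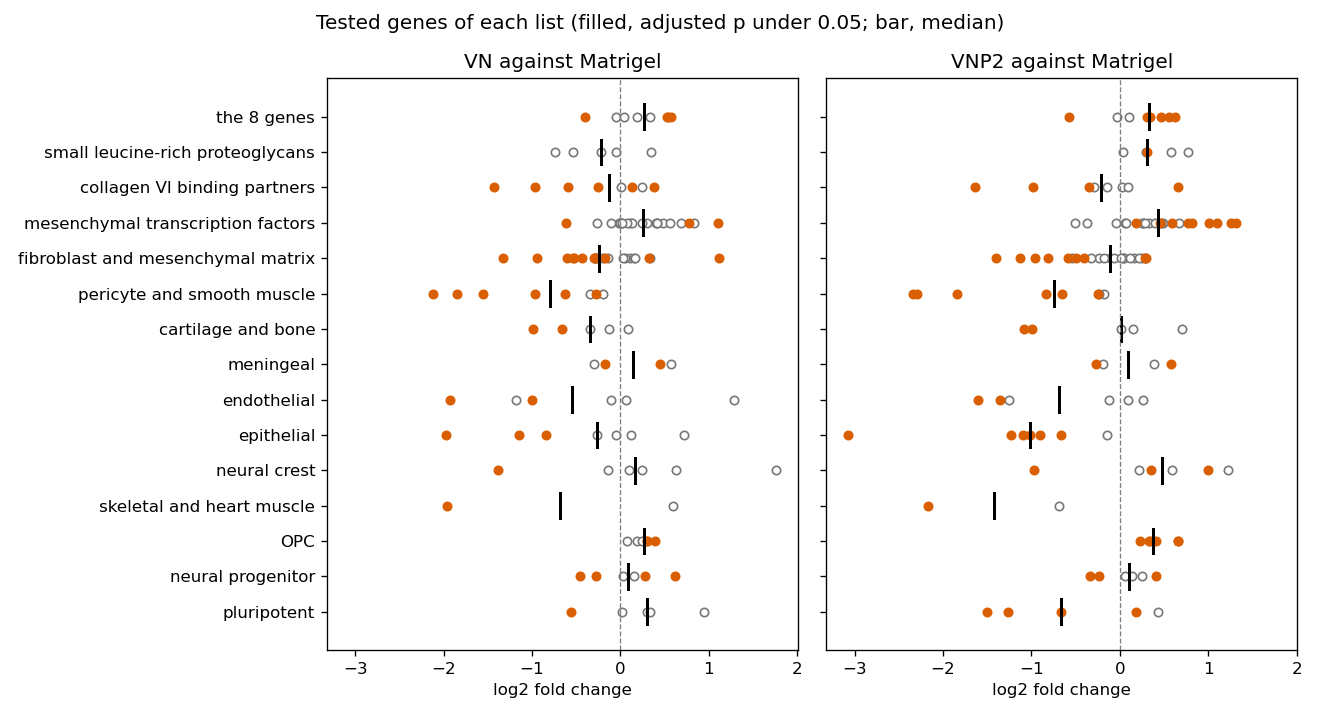
Log2 fold changes (horizontal axes) of the tested genes of each list on VN and VNP2 against Matrigel, with the list's median as a bar and called genes filled. The 8 genes have medians of 0.26 and 0.33, and the pericyte and smooth muscle genes lie to the left of 0 in both panels.

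Markers of other cell types were read beside the 8 genes. Among all tested genes, calls against Matrigel made up 5.66% (VN) and 7.44% (VNP2) for rises. For falls the shares were 9.6% and 9.13%. None of the lists below was tested against these shares. In lists this short, a count of 1 call cannot be told from them. Of 4 tested meningeal genes, 1 was higher (ZIC1, by 0.45 on VN and 0.57 on VNP2) and 1 lower (CRABP2) on both, while GJB6 was at 0 and PTGDS had 3 counts in all. Of 5 cartilage and bone genes, 2 were lower on both (COL11A1 and RUNX2), and IBSP was at 0. Of 6 tested neural crest genes, 1 was lower on VN (ETS1), and 2 were higher (TFAP2A and NGFR) and 1 lower on VNP2, while PAX3 had 2 counts in all. Of 6 endothelial genes, 2 were lower on both, with a sum of 10.78 to 12.95 TPM and 36 counts of PECAM1 in all. Of 7 epithelial genes, 3 were lower on VN and 6 on VNP2 (3 in DESeq2, 4 without either Matrigel library), and KRT8 went from 103 ± 2.97 TPM to 60.9 ± 1.44 and 67.9 ± 1.16. Of 2 tested muscle genes, 1 was lower on both, and MYF5 and MYOG were at 0. Of 6 tested OPC genes, 3 were higher on VN and 6 on VNP2, and 0 were lower. Without Matrigel replicate 2 these were 2 and 4, and without Matrigel replicate 3 they were 1 and 4. PDGFRA among these is also a gene of mesenchyme. Of 6 neural progenitor genes, 2 were higher and 2 lower on VN, and 1 was higher and 2 lower on VNP2, with PAX6 at 36 counts in all. Of 5 pluripotency genes, 1 was lower on VN, and 1 was higher and 3 lower on VNP2. Leaving out a Matrigel library also moved other counts. Without either one, CRABP2 on VN and the higher pluripotency gene on VNP2 were not called. Without Matrigel replicate 2, 1 endothelial gene was lower on each substrate and 1 neural crest gene higher on VNP2. Without Matrigel replicate 3, 1 cartilage and bone gene was lower and 1 neural progenitor gene higher on VN. Without VN replicate 1, 2 neural crest genes were lower on VN and 3 neural progenitor genes higher on VNP2. The part of any of these cell types in the values of the 8 genes was not tested.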

How the data were processed

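PolyA RNA of OPCs was sequenced from stranded libraries. The authors trimmed reads with TrimGalore and ran Salmon on the GENCODE v32 transcripts (GRCh38.p13), and they deposited estimated counts, not normalized, and TPM per transcript. They also deposited a signal table of normalized counts per gene (tximport, DESeq2 1.27.12), which was used for checks and 1 alternative. Here the estimated counts were summed per gene through GENCODE v29 identifiers (98.8 to 98.9% of counts), rounded, and fitted with transcript length offsets in edgeR 4.0.16 (R 4.3.3; TMM, filterByExpr with minimum count 10 and total 15, all 8 libraries, two-sided). A count of 100 has a sampling error of 10%. Ratios used summed TPM. The fit was tested on simulated data of 17946 genes, where 169 of 197 genes given a change were called, and 5 unchanged ones. Named genes of a list were called in at least 1 pair and had a mean of 100 normalized counts or more, and at most 4 per list were kept, by mean; others, such as ACTA2, CNN1 and PDGFRA, were named after their values were seen. The members and lists were chosen with earlier results of these data known. Alternatives were DESeq2 1.42.0, RLE normalization, no offsets, no filter, a minimum of 50 counts in every library, a replicate block, the pair's libraries alone, limma 3.58.1 on the authors' normalized counts (log2, pseudocount 1) or on TPM (pseudocount 0.1), and each library left out in turn.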

Additional observations from a re-analysis of the deposited data

How the results depend on the processing

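Of 408 values (24 fold changes of the 8 genes under 17 alternatives), 384 kept their direction and side of the threshold or changed sign without being called, 11 lost a call, 13 gained one, and 0 called values reversed. Leaving 1 library out gave 1188 to 3899 called genes on VN and 1609 to 3608 on VNP2 against Matrigel, lowest without a Matrigel library and highest without VN replicate 1. Between VNP2 and VN it gave 547 (without VNP2 replicate 1) to 1996 (without VN replicate 1). The count of the 8 genes called then ranged from 3 to 5 on VN, from 3 to 6 on VNP2 and from 0 to 2 between VNP2 and VN, the highest without VN replicate 1. In this last comparison DESeq2 called 1 (LUM), the fit without length offsets 3 (LUM, DCN and TWIST1), the fit without a filter 2 (LUM and DCN) and the replicate block 2. PRRX1 on VN missed the threshold with limma on TPM (adjusted p = 0.0514), and FOXC1 on VN passed it there (0.0494) and without offsets (0.0328); the cause was not tested. Over all genes with enough counts, same-numbered libraries deviated together only weakly (correlations of -0.025 to 0.119), so the numbers were not taken as pairs. LUM and DCN, however, were lowest in replicate 1 on both VN and VNP2. Their log2 deviations from the substrate mean there were -0.193 and -0.144 for LUM and -0.122 and -0.102 for DCN. Matrigel has no replicate 1 here. The block gave 3389, 3170 and 1146 called genes. Genes under about 100 counts were limited by depth, which touches none of the 8.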
